A study of Mus musculus with 6 samples.

Results

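The genes described here build and run the motile cilia of the airway epithelium. They are 37 genes, taken by name, of the 25860 genes counted in lung RNA from RAG1-/- and RAG1-/- Sgo1-/+ mice, and all 37 were found in the count table. Tissue came from lungs that looked normal, of mice kept to 12 months of age without treatment, with 3 mice per genotype and 1 library per mouse. RAG1-/- mice (replicates 1, 2 and 3) lack both copies of the recombination-activating gene Rag1 and so make no mature B or T cells. RAG1-/- Sgo1-/+ mice (replicates 4, 5 and 6) carry that same loss and have in addition 1 functional copy of Sgo1, which encodes Shugoshin-1, the protector of sister chromatid cohesion at centromeres. The comparison asks what chromosome instability from the loss of a Sgo1 copy does to gene expression in the lung when adaptive immunity is absent in both groups. The Sgo1 allele is germline and so is carried by every cell, and both genotypes came from the same type of F2 cross. Whether it acts in ciliated cells was not tested. The tissue is a mixture in which ciliated cells are a minority, so a different share of ciliated cells and a different amount of RNA per ciliated cell cannot be told apart.

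A motile cilium is a whip of microtubules in a ring of outer doublets around a central pair. Dynein arms on the doublets make them slide, radial spokes and nexin links turn the sliding into a bend, and the central apparatus sets the beat. In the airways, multiciliated cells drive mucus towards the throat, and the club cells between them secrete the fluid. Foxj1, a forkhead factor, is the main switch of the motile cilium program, and RFX factors act with it through X-box sites in the promoters of ciliary genes. Loss of a dynein arm, its assembly factors or a radial spoke causes primary ciliary dyskinesia in people.

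Counts on genes ranged from 3205822 to 9366774 per library, so that 3 counts, taken as the smallest amount detected, correspond to 0.320 to 0.936 CPM, counts scaled by the total of each library. At this depth the motile cilia genes held between 52 and 24355 counts summed over the 6 libraries, with a median of 1125. Counts of Sgo1 itself were 6, 2 and 4 in RAG1-/- against 6, 0 and 2 in the other genotype, so few that a lost copy could not be seen. Some libraries stood apart. RAG1-/- replicate 1 was the only one with Xist (7717 counts, against 4 to 8 elsewhere), so sex was not balanced between the groups, and its part in the values was not tested beyond leaving that library out. RAG1-/- replicate 2 held 1853 counts of the immunoglobulin gene Igkc (0 to 8 elsewhere), a B cell product that RAG1-/- mice should lack, and RAG1-/- Sgo1-/+ replicate 6 held 8270 counts of the macrophage gene Retnla (414 to 791 elsewhere). Genes of adipocytes were high in RAG1-/- replicate 1 (403 CPM summed over 5 genes, 45.0 to 96.4 CPM elsewhere). Counts of genes and mean differences are given with and without single libraries.

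Many promoters of these genes hold a sequence that their choice by name did not use, the X-box. RefSeq promoter windows, from 250 bases before to 50 bases after a transcription start on GRCm38.p6, were given for 30 of the 37 genes (33 windows). The windows were searched on both strands for the X-box, in a loose form made of GTNNCC and NGNAAC with 0 to 3 bases between them. It was present for 14 of the 30 genes (46.7%), against 5.94% of the 27025 genes with a window. The stretches below show how the site varies between genes of the dynein arms and their docking complex, the central apparatus, a tektin and an RFX factor itself. Each runs 5′ to 3′ on the strand of its gene, ends before the transcription start, and has the X-box in capitals. In Hydin, Dnai1, Dnai2 and Tekt2 the match is on the opposite strand, so the capitals show the reverse complement of the form given.
Hydin, chr8:110266944-110266976, plus strand: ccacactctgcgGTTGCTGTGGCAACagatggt
Dnai1, chr4:41569763-41569793, plus strand: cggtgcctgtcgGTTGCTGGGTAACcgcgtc
Dnai2, chr11:114727374-114727410, plus strand: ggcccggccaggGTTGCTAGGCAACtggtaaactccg
Dnah9, chr11:66168609-66168645, minus strand: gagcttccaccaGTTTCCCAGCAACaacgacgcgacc
Ccdc114, chr7:45924188-45924214, plus strand: tattggccccttGTCTCCCCAGTAACc
Tekt2, chr4:126325693-126325729, minus strand: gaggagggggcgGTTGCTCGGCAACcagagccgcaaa
Rfx2, chr17:56831098-56831136, minus strand: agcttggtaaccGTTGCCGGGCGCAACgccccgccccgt
Spag16, chr1:69826855-69826892, plus strand: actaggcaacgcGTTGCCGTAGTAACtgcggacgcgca
Of these stretches, the motif lies closest to the gene in Ccdc114, whose nearest base is 2 bases before the start, followed by Dnai1 (7 bases) and Hydin (8 bases). In Rfx2 it lies 102 bases away. For 13 genes an X-box was found before the start, and for 7 of them it lay whole within the last 50 bases.

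Part of the X-box is also common on its own. Its left arm GTTGCC, which the loose form can contain, was found for 16 of the 30 genes (53.3%), against 14.1% of all genes. The strict form, GTTGCC and GGNAAC with 2 bases between them, was found for 0 of them and for 0.355% of all genes. The forkhead motif TGTTTAC, the kind of site that Foxj1 binds, was found for 2 genes, Sntn and Ak7 (6.67%), against 4.05% of all genes. Other cilium genes carried the loose X-box at shares of 40.6% (28 of 69 genes of a wider motile cilia list) and 30.8% (12 of 39 genes of intraflagellar transport and the primary cilium). It was found for 0 of 8 club cell genes and 0 of 7 alveolar type 2 genes. A match describes the letters in a window and does not show that a factor binds there.

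**Figure D1:**
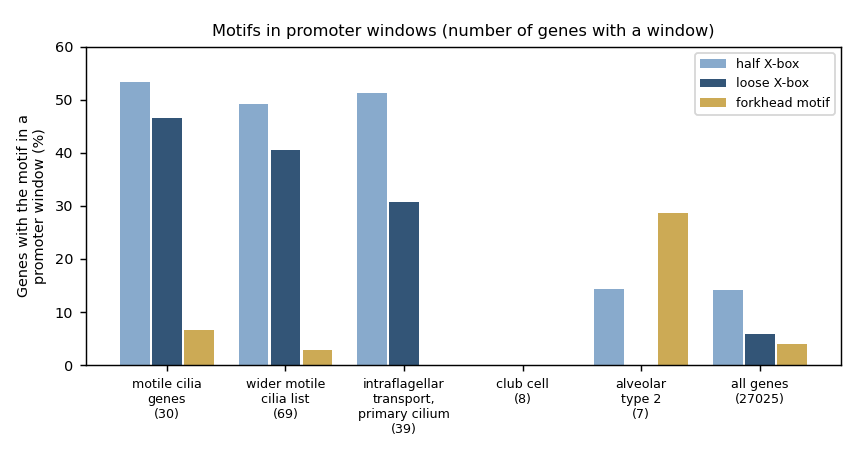
Share of genes (%) with each motif in at least 1 of their promoter windows, for gene lists and for all genes with a window (number of genes in brackets). The loose X-box is at 46.7% for the motile cilia genes, 40.6% and 30.8% for the other cilium lists and 5.94% for all genes, and no club cell gene has any of the 3 motifs.

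No motile cilia gene differed between the genotypes past the thresholds of the study (2-fold, with an adjusted P under 0.05). The paper did report differing genes at 2-fold and P under 0.05, whereas the fit used here called 0 of the 17231 tested genes. The lack of calls is thus not particular to the motile cilia genes. Most of the 37 lay somewhat higher in RAG1-/- Sgo1-/+. As a mean over the 37 genes, the level was 68.2, 52.1 and 48.2 CPM in RAG1-/- and 56.4, 79.6 and 70.7 CPM in RAG1-/- Sgo1-/+. RAG1-/- replicate 1 was thus above RAG1-/- Sgo1-/+ replicate 4, and the groups overlapped. The group means were 56.1 ± 10.6 and 68.9 ± 11.7 CPM (SD, n = 3 each), a ratio of 1.23. On the log2 CPM scale, where each gene counts equally, the mean difference was 0.257, and that over all 17231 tested genes was 0.0206. The SD between the libraries of a group was 0.295, which is the spread of single libraries and not the error of the difference.

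Gene by gene, edgeR's quasi-likelihood test called 0 of the 37, with Benjamini-Hochberg adjusted P values from 0.832 to 0.997 (0% of the tested genes were called in all). DESeq2 also called 0 of them. At an unadjusted P under 0.05, 3 of the 37 (8.11%) were higher in RAG1-/- Sgo1-/+, against 3.15% of all tested genes, and 0 were lower, against 2.52%. In CPM, 0 of the 37 had groups that did not overlap in either direction, while 6.24% of all tested genes lay wholly higher and 5.54% wholly lower. The log2 fold changes (RAG1-/- Sgo1-/+ over RAG1-/-) ran from -0.20 to 0.62, and 32 of 37 (86.5%) were above 0, against 54.9% of all tested genes. Their median was 0.26, and that of all tested genes 0.03. The 37 genes move together from library to library, so this count does not weigh as 37 separate observations. The 95% interval of the log2 fold change held 0 for 34 of the 37 genes and reached beyond a 2-fold increase for 10.

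**Figure D2:**
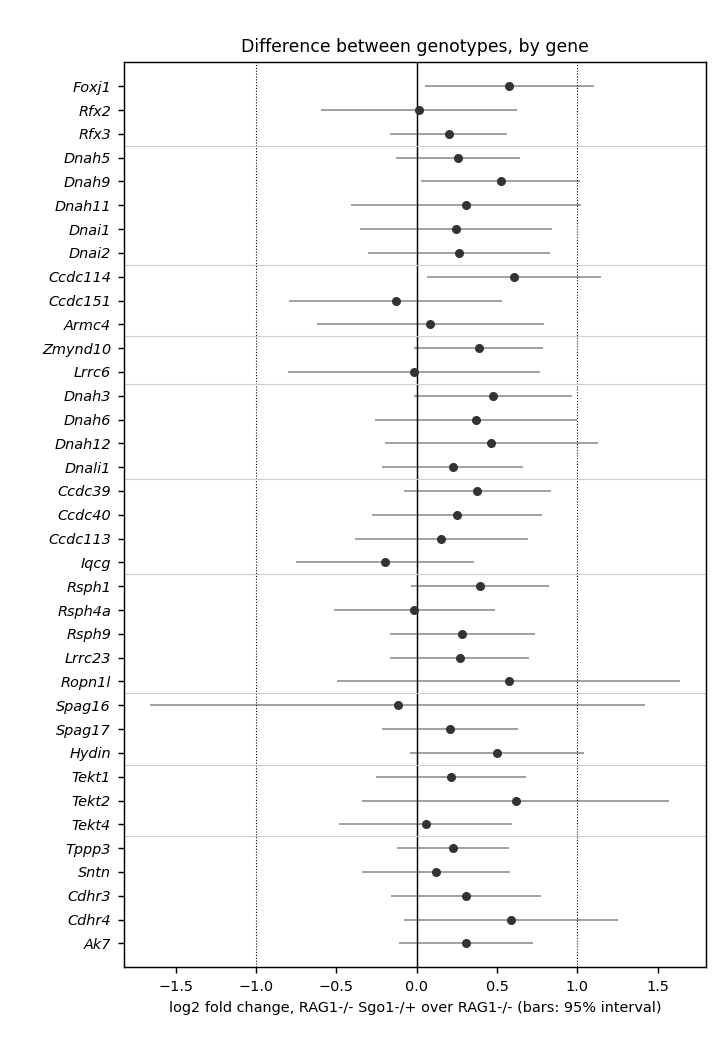
log2 fold change of each motile cilia gene, RAG1-/- Sgo1-/+ over RAG1-/- (points), with its 95% interval from the edgeR fit (bars), in order of role from transcription factors at the top to other ciliated cell genes at the bottom. Dotted lines mark a 2-fold difference. All 37 points lie within it, and 34 of the 37 intervals hold 0.

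The value depended on single libraries. Without RAG1-/- replicate 1 the mean difference was 0.392 and 12 genes (32.4%) were higher at an unadjusted P under 0.05, where 3.65% of all genes were. Without RAG1-/- Sgo1-/+ replicate 4 it was 0.448, with 15 genes (40.5%) against 5.32% of all genes. Leaving out RAG1-/- replicate 2, RAG1-/- replicate 3 or RAG1-/- Sgo1-/+ replicate 5 left 0 such genes, where 1.81%, 1.84% and 2.88% of all genes passed, and leaving out RAG1-/- Sgo1-/+ replicate 6 left 1, where 2.52% did. The mean difference without each was 0.228, 0.1497, 0.140 and 0.184. Without the library high in Igkc and that high in Retnla together (RAG1-/- replicate 2 and RAG1-/- Sgo1-/+ replicate 6) it was 0.154, and 1 gene was below that P, against 1.74% of all genes. For 32 of the 37 genes, leaving out a single library turned the sign of the log2 fold change or moved it by over 1.5 times. The lowest value came without RAG1-/- Sgo1-/+ replicate 5 for 18 genes and without RAG1-/- replicate 3 for 10, and the highest without RAG1-/- replicate 1 for 18 and without RAG1-/- Sgo1-/+ replicate 4 for 16.

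The libraries fell into a higher and a lower set that crossed the genotypes. In RAG1-/- replicate 1 and RAG1-/- Sgo1-/+ replicates 5 and 6, 30, 34 and 32 of the 37 genes lay above their own mean over the 6 libraries. In RAG1-/- replicates 2 and 3 and RAG1-/- Sgo1-/+ replicate 4, only 8, 2 and 4 did. RAG1-/- Sgo1-/+ replicate 5 had the highest value of 23 genes and RAG1-/- replicate 3 the lowest of 20. The sum over the genes ranged 1.65-fold between libraries. For 34 of 37 genes RAG1-/- replicate 1 was above RAG1-/- Sgo1-/+ replicate 4, while for 29 of 37 both RAG1-/- replicates 2 and 3 were below both RAG1-/- Sgo1-/+ replicates 5 and 6.

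**Figure D3:**
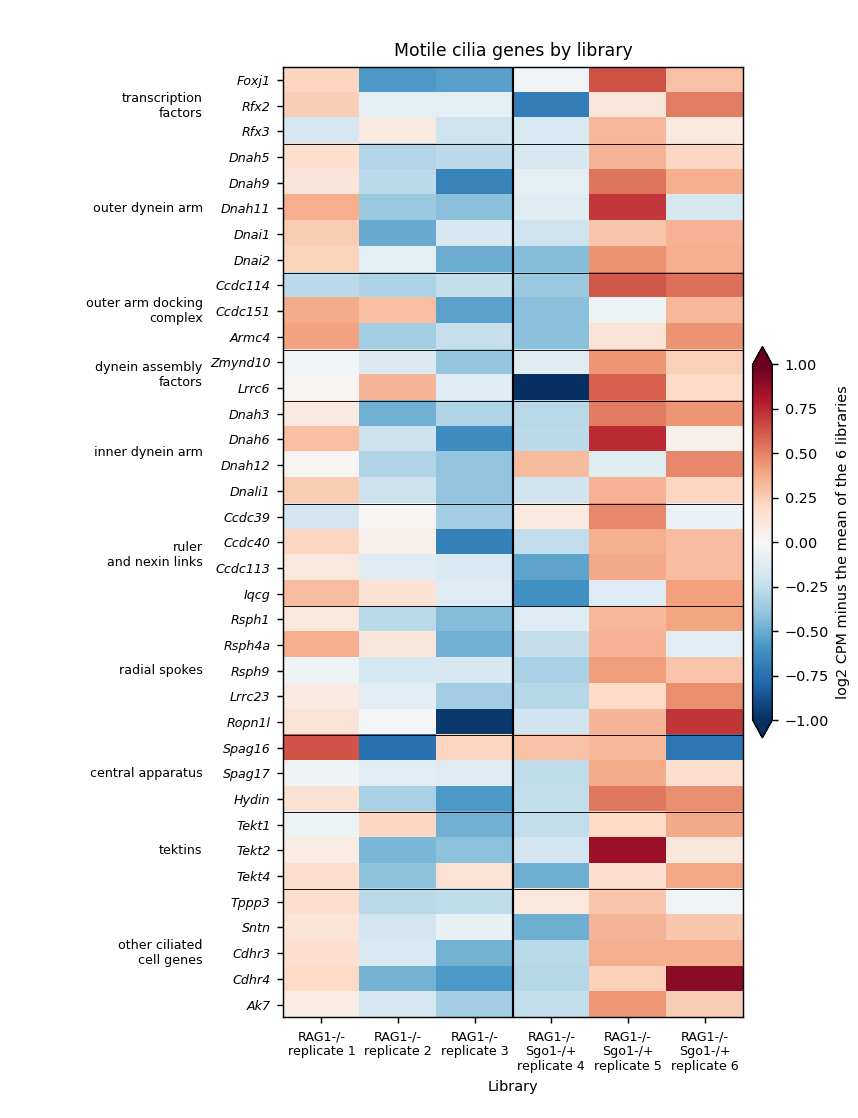
Level of each motile cilia gene in each library, as log2 CPM minus the mean of the gene over the 6 libraries (colour scale, cut at 1 in both directions), grouped by role. The vertical line separates the genotypes. RAG1-/- replicate 1 and RAG1-/- Sgo1-/+ replicates 5 and 6 are mostly above the mean (30, 34 and 32 of 37 genes), and the other 3 libraries mostly below it.

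Among the transcription factors, Foxj1 showed the widest difference. It was at 286, 165 and 169 CPM in RAG1-/- and at 241, 383 and 301 CPM in RAG1-/- Sgo1-/+. The RAG1-/- library with the highest value stood above the lowest of the other group, so the groups overlapped. The log2 fold change was 0.58 (SE 0.24), with an unadjusted P=0.0346 and an adjusted P=0.832 by edgeR. Leaving out single libraries moved it between 0.39 and 0.88. Rfx3, an RFX factor needed for ciliogenesis in many tissues, was at 38.7, 46.9 and 37.8 CPM and at 39.2, 55.2 and 46.8 CPM (log2 fold change 0.20, SE 0.16). Rfx2, which works with Foxj1 in multiciliated cells, was at 25.8, 20.4 and 20.3 CPM and at 13.3, 23.7 and 31.2 CPM. RAG1-/- Sgo1-/+ held both its lowest and its highest library, and its log2 fold change of 0.01 (SE 0.27) turned below 0 with TMM factors or DESeq2.

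All 5 outer dynein arm genes had log2 fold changes above 0, from 0.25 to 0.52. Dnah9, a heavy chain of the outer arm, was at 53.3, 40.6 and 30.6 CPM in RAG1-/- and at 45.9, 70.9 and 62.7 CPM in RAG1-/- Sgo1-/+. Replicate 4 fell inside the RAG1-/- range and the other Sgo1-/+ libraries above it. Its log2 fold change was 0.52 (SE 0.22), with an unadjusted P=0.03998 and an adjusted P=0.832 by edgeR. Dnah5, the heavy chain most often mutated in primary ciliary dyskinesia, was at 171, 125 and 127 CPM and at 137, 193 and 177 CPM (log2 fold change 0.26, SE 0.17). Dnah11, the heavy chain of the proximal outer arm, was at 15.4, 9.09 and 8.78 CPM and at 10.9, 19.6 and 10.6 CPM. Its value of 0.31 (SE 0.32) rested on RAG1-/- Sgo1-/+ replicate 5, without which it was -0.06. The intermediate chains Dnai1 and Dnai2, whose promoter X-boxes are shown above, had log2 fold changes of 0.25 (SE 0.27) and 0.26 (SE 0.26). Dnai1 was at 14.6, 8.49 and 10.9 CPM and at 10.5, 14.8 and 15.6 CPM. Dnai2 was at 34.8, 27.9 and 21.0 CPM and at 22.0, 40.8 and 38.4 CPM, again with replicate 4 low and replicate 1 high.

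The docking complex holds the outer arms to the doublets, and the signs of its 3 members differed. Ccdc114 was at 21.1, 20.4 and 21.5 CPM in RAG1-/- and at 19.6, 39.3 and 37.4 CPM in RAG1-/- Sgo1-/+. The RAG1-/- libraries were close to each other, 2 of the Sgo1-/+ libraries stood well above them and replicate 4 just below. Its log2 fold change of 0.61 (SE 0.24) had an unadjusted P=0.0317 and an adjusted P=0.832 by edgeR. Unlike most of the genes, Ccdc114 was not raised in RAG1-/- replicate 1. Ccdc151 was at 17.0, 16.2 and 8.93 CPM and at 9.70, 12.6 and 16.5 CPM (log2 fold change -0.13, SE 0.30), and Armc4 was at 12.4, 7.27 and 7.87 CPM and at 6.87, 10.2 and 12.8 CPM (0.09, SE 0.32). In these genes replicate 1 was high and replicate 4 low within its group. Both signs turned when a single library was left out.

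Dynein arms are put together in the cytoplasm by assembly factors before they enter the cilium. Zmynd10 was at 32.1, 29.5 and 25.0 CPM in RAG1-/- and at 30.1, 44.5 and 38.7 CPM in RAG1-/- Sgo1-/+ (log2 fold change 0.38, SE 0.18, unadjusted P=0.0581, adjusted P=0.832 by edgeR). Lrrc6, its partner in assembly, was at 15.7, 19.8 and 14.2 CPM and at 7.47, 23.7 and 17.8 CPM, so that RAG1-/- Sgo1-/+ held the lowest and the highest value. Its log2 fold change lay at -0.02 (SE 0.35), and without RAG1-/- Sgo1-/+ replicate 4 it was 0.34. The inner arm genes Dnah3, Dnah6, Dnah12 and Dnali1 all lay above 0, from 0.22 to 0.48. Dnah3 was at 68.1, 45.9 and 52.1 CPM and at 52.9, 92.2 and 87.0 CPM (log2 fold change 0.48, SE 0.22). Dnah6 spread most among them, from 45.1 to 85.8 CPM in RAG1-/- and from 57.8 to 117 CPM in RAG1-/- Sgo1-/+ (0.37, SE 0.28). Without RAG1-/- Sgo1-/+ replicate 5 its log2 fold change was 0.02 and without RAG1-/- replicate 1 it was 0.65. Dnah12 was at 7.15, 5.66 and 5.30 CPM and at 8.89, 6.48 and 9.98 CPM (0.46, SE 0.30), and was 1 of the few genes with replicate 4 above replicate 1. Dnali1, a light chain, was at 73.1, 52.9 and 46.6 CPM and at 53.5, 78.0 and 70.8 CPM (0.22, SE 0.20). Of the exon bases of Dnah3, 11.2% overlap Lyrm1 on the opposite strand, and this library type does not mark the strand.

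The ruler and nexin-link genes space the arms and spokes along the doublet and join neighbouring doublets. Ccdc39 and Ccdc40, which together form the ruler, had log2 fold changes of 0.38 (SE 0.20) and 0.25 (SE 0.24). Ccdc40 was at 60.9, 54.2 and 32.7 CPM and at 44.2, 67.2 and 64.9 CPM, while Ccdc39 was at 15.6, 18.0 and 14.1 CPM and at 19.2, 25.0 and 17.2 CPM. Both were lowest in RAG1-/- replicate 3 and highest in RAG1-/- Sgo1-/+ replicate 5. Without RAG1-/- replicate 3 the log2 fold change of Ccdc40 was 0.03. For Ccdc39, 34.2% of the exon bases overlap Ttc14 on the other strand, and reads of the pair cannot be told apart there. Ccdc113, a coiled-coil protein of cilia, was at 22.7, 19.4 and 18.9 CPM and at 14.5, 27.6 and 26.2 CPM (0.15, SE 0.24). Iqcg, part of the nexin-dynein regulatory complex, had the lowest log2 fold change of the 37, -0.20 (SE 0.25). It was at 28.6, 25.5 and 21.0 CPM and at 14.9, 20.9 and 30.6 CPM, and 52.8% of its exon bases overlap Lrch3.

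Radial spoke genes pass signals from the central pair to the dyneins. Rsph1 was at 39.3, 30.1 and 26.9 CPM in RAG1-/- and at 33.3, 45.9 and 48.0 CPM in RAG1-/- Sgo1-/+ (log2 fold change 0.39, SE 0.19). Rsph4a, a component of the spoke head like Rsph1, was at 73.1, 61.4 and 40.6 CPM and at 48.1, 72.4 and 52.7 CPM (-0.01, SE 0.23). The pair parted most in RAG1-/- Sgo1-/+ replicate 6, where Rsph1 had its highest value and Rsph4a one in the middle of its range, and the difference between them was not tested. Rsph9, of the spoke head, was at 24.9, 22.6 and 22.8 CPM and at 20.4, 34.3 and 31.2 CPM (0.28, SE 0.20). Lrrc23 was at 84.9, 74.4 and 62.9 CPM and at 65.9, 91.7 and 111 CPM (0.27, SE 0.19, and 0.09 without RAG1-/- Sgo1-/+ replicate 6). In both, replicate 4 was at or near the bottom of all libraries and replicates 5 and 6 at the top. Ropn1l, a spoke protein that binds kinase anchors, had few counts and ranged from 1.51 to 5.61 CPM (0.57, SE 0.48).

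The central apparatus lies between the doublets and regulates the wave. Hydin, a giant protein of the central pair whose loss stops normal bending, was at 38.4, 27.5 and 23.1 CPM in RAG1-/- and at 29.1, 50.01 and 47.7 CPM in RAG1-/- Sgo1-/+. The difference on the log2 scale was 0.50 (SE 0.24, unadjusted P=0.0674, adjusted P=0.832 by edgeR). Spag17 spread little, from 20.7 to 22.2 CPM and from 18.99 to 29.5 CPM (0.21, SE 0.19). Spag16 had only 52 counts in all and lay between 0.606 and 2.14 CPM, near the floor of 3 counts, so neither a change nor its absence was detectable for it. Tektins, filaments within the doublet wall, were at 0.21 (Tekt1, SE 0.21), 0.62 (Tekt2, SE 0.43) and 0.06 (Tekt4, SE 0.24) on the log2 scale. Tekt1 ranged from 31.3 to 57.1 CPM and Tekt4 from 19.4 to 35.9 CPM, each highest in RAG1-/- Sgo1-/+ replicate 6. Tekt2 was at 3.95, 2.63 and 2.72 CPM and at 3.23, 7.04 and 4.05 CPM. It had the highest fold change of the 37 and was 0.21 without RAG1-/- Sgo1-/+ replicate 5. Of its exon bases, 25.7% overlap Gm12945 on the opposite strand.

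The remaining genes mark ciliated cells without being parts of the motor. Tppp3, a tubulin-binding protein, was at 780.0, 575 and 579 CPM in RAG1-/- and at 745, 837 and 677 CPM in RAG1-/- Sgo1-/+. It made up between 25.9% and 35.7% of the summed CPM of the 37 genes and varied 1.46-fold between libraries (log2 fold change 0.22, SE 0.16). Cdhr4, a cadherin-related gene, was at 39.3, 24.6 and 22.9 CPM and at 28.1, 40.4 and 64.3 CPM (log2 fold change 0.59, SE 0.30, unadjusted P=0.0783, adjusted P=0.832 by edgeR). RAG1-/- Sgo1-/+ replicate 6 held its highest value, and 21.1% of its exon bases overlap another gene on the same strand. Without that library the log2 fold change was 0.23. Cdhr3, the receptor for rhinovirus C in people, was at 96.6, 77.0 and 61.6 CPM and at 71.1, 111 and 110 CPM (0.31, SE 0.21). Ak7, an adenylate kinase of the axoneme, was at 72.5, 60.8 and 54.2 CPM and at 57.8, 93.0 and 81.7 CPM (0.31, SE 0.19). Sntn, a protein of the ciliary tip, was at 70.2, 56.2 and 60.8 CPM and at 45.7, 81.3 and 77.4 CPM (0.12, SE 0.21). For all 3, RAG1-/- Sgo1-/+ replicate 4 lay below RAG1-/- replicate 1 and the other Sgo1-/+ libraries above it.

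Levels between genes were compared as CPM per kilobase of the median coding transcript. Tppp3 was highest at 620 ± 95.5 (SD, n = 6 libraries), followed by Foxj1 (98.1 ± 31.9), Lrrc23 (87.5 ± 19.3), Cdhr4 (60.9 ± 25.7) and Sntn (52.6 ± 10.9). Among the transcription factors, Foxj1 was above Rfx3 (16.1 ± 2.48) and Rfx2 (6.84 ± 1.84). The outer arm heavy chains were in the order Dnah9 (11.6 ± 3.40), Dnah5 (9.91 ± 1.86) and Dnah11 (0.881 ± 0.303), and Dnah9 and Dnah5 overlapped over the libraries. With the longest transcript Dnah9 was at 3.67 ± 1.07, below Dnah5. At the bottom were Dnah12 (1.15 ± 0.293), Dnah11 and Spag16 (0.479 ± 0.217). Of the 36 pairs of neighbours in this order, only Tppp3 and Foxj1 had ranges over the libraries that did not overlap. The order depended on the transcript chosen for 7 genes, which moved by more than 3 places with the longest transcript in place of the median length, among them Cdhr4 (from place 4 to 15), Rfx3 (15 to 27) and Dnah9 (17 to 29).

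**Figure D4:**
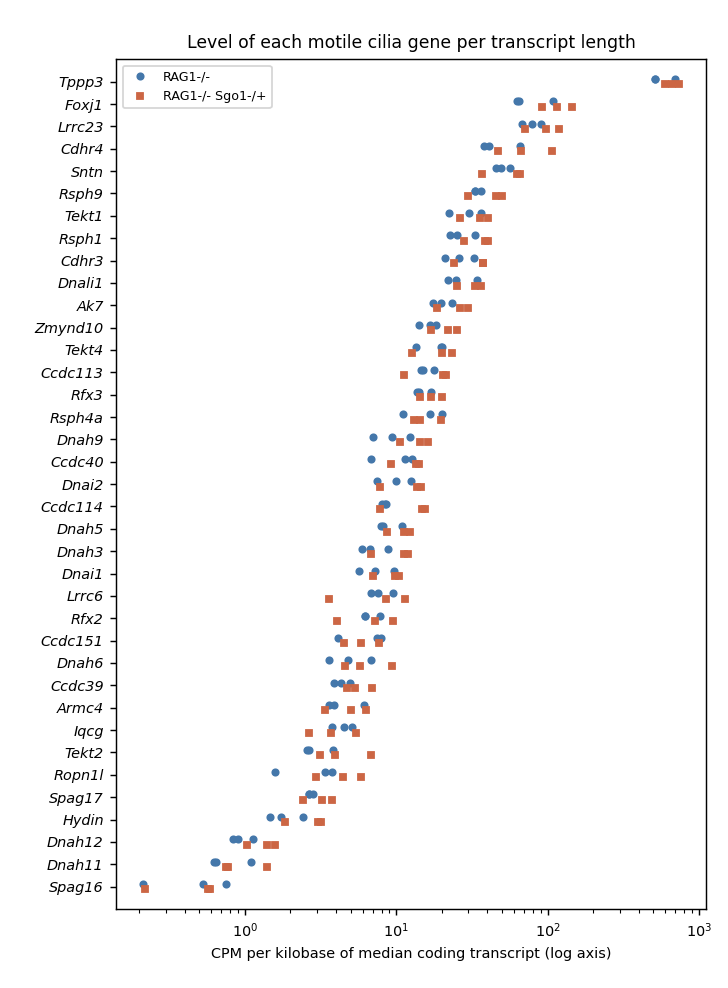
Level of each motile cilia gene in CPM per kilobase of median coding transcript (log axis), 1 point per library, RAG1-/- as circles and RAG1-/- Sgo1-/+ as squares, in descending order of the mean. Levels run from 620 for Tppp3 to 0.479 for Spag16, and the genotypes overlap for all 37 genes.

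How closely each gene followed the others was described by Pearson's r of its log2 CPM with the mean of the other motile cilia genes over the 6 libraries. The median was 0.857. Ak7 (0.988), Cdhr3 (0.986) and Hydin (0.984) followed the set most closely, and Spag16 (-0.05), Dnah12 (0.37), Iqcg (0.48) and Ccdc39 (0.50) least. An r above 0.8 was found for 24 of the 37 genes (64.9%), against 732 of 14604 other genes with at least 60 counts (5.01%). Since the libraries split into 3 with higher and 3 with lower levels, r mostly describes that split. It is given without a test, and libraries share their depth and their mix of cells across all genes.

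Outside the 37, the genes most like their mean were Nphp4 (r 0.997), which encodes a protein of the ciliary transition zone, Mgat3 (0.995), Myb (0.993), Gga1 (0.993), Ccdc17 (0.990), Dnajb13 (0.986), Lrrfip2 (0.986), Catip (0.983), Gm4262 (0.983) and Slc44a4 (0.982). Myb, a transcription factor that acts early in the multiciliated program, was at 47.2, 41.2 and 36.5 CPM in RAG1-/- and at 38.4, 51.9 and 51.2 CPM in RAG1-/- Sgo1-/+. Ccdc17 was at 138, 102 and 95.5 CPM and at 96.4, 179 and 172 CPM. Both had the low value in replicate 4 and the high value in replicate 1 seen for the motile cilia genes. This follows from their choice by r over the same 6 libraries and is no separate observation. Dnajb13, a radial spoke protein, ranged only from 9.99 to 14.3 CPM.

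Other genes of the motile cilium gave similar values. Of a wider list of 89, 85 were counted and not already among the 37, and 83 of them were tested. Of these, 0 were called by edgeR or by DESeq2, and each tool found 2 higher and 0 lower at an unadjusted P under 0.05. By edgeR that is 2.41% of the list, against 3.15% of all genes. The log2 fold change was above 0 for 71 of the 83, with a median of 0.21. The groups did not overlap for 3 genes (3.61%, against 6.24% of all genes), Foxn4, Dnah2 and Morn2, each higher in RAG1-/- Sgo1-/+ and named after their values were seen. Foxn4 had only a few counts per library, with the same count in RAG1-/- replicates 1 and 3 and RAG1-/- Sgo1-/+ replicate 4. Cfap65, a central apparatus protein, was at 103, 72.1 and 63.3 CPM in RAG1-/- and at 79.2, 161 and 152 CPM in RAG1-/- Sgo1-/+, a log2 fold change of 0.71 (SE 0.27) with an adjusted P=0.832 by edgeR. Nme5, a radial spoke protein, was at 28.1, 17.6 and 14.7 CPM and at 23.0, 34.3 and 38.4 CPM (log2 fold change 0.64, SE 0.27). Cfap45, Dnah1 and Tctex1d4 followed by P, at 0.58, 0.46 and 0.50. Leaving out single libraries moved the number higher at an unadjusted P from 0 to 18, with 17 genes without RAG1-/- replicate 1 and 18 without RAG1-/- Sgo1-/+ replicate 4, where 3.65% and 5.32% of all genes passed.

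The early regulators on that list were less uniform. Of the 8 that switch cells to the multiciliated state, 7 were tested and 3 had a log2 fold change above 0. Their median was -0.21. Gmnc, at the top of the program, was at 10.5, 10.5 and 7.57 CPM in RAG1-/- and at 7.27, 8.15 and 9.36 CPM in RAG1-/- Sgo1-/+, and Ccno and Deup1, which act in centriole amplification, were at -0.25 (SE 0.33) and -0.21 (SE 0.33). Mcidas, also below 0, was at or under 1.56 CPM in every library. The 3 above 0 were Myb (0.17, SE 0.16), Trp73 (0.01, SE 0.22) and Foxn4, which had only 2, 0 and 2 counts in RAG1-/- and 2, 6 and 4 in RAG1-/- Sgo1-/+. These genes were named after their values were known, and by edgeR 0 of the 7 differed at an unadjusted P under 0.05.

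Intraflagellar transport and primary cilium genes, which most lung cells use, served as a cilium list outside the motile apparatus. Of 45 genes, 0 were called by edgeR or DESeq2, 1 was higher by edgeR (0 by DESeq2) and 0 were lower at an unadjusted P under 0.05 (2.22% higher, against 3.15% of all genes), and 29 had a log2 fold change above 0, with a median of 0.05. The groups did not overlap for Bbs1, Kif3b, Ift122 and Dync2h1 in the higher direction and Kifap3 in the lower (4 and 1 genes, or 8.89% and 2.22%, against 6.24% and 5.54% of all genes). Dync2h1 and Kifap3 were named after their values were seen. Bbs1, a subunit of the BBSome that carries membrane proteins into cilia, was at 26.8, 23.4 and 26.3 CPM in RAG1-/- and at 28.3, 36.5 and 35.6 CPM in RAG1-/- Sgo1-/+, with 0.38 (SE 0.16) on the log2 scale and an adjusted P=0.832 by edgeR. Kif3b, a motor of anterograde transport, had a log2 fold change of 0.26 (SE 0.12), and Inpp5e, a phosphatase of the ciliary membrane, one of 0.36 (SE 0.19). Dync2li1, of the retrograde motor, was at -0.41 (SE 0.23), and Ift122, a retrograde transport subunit, at 0.37 (SE 0.22). An r above 0.8 with the motile cilia genes was found for 6 of 44 (13.6%).

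The other airway lists partly followed the same libraries. Counting each of 13 club cell genes equally, their mean log2 CPM came to 9.89, 9.25 and 9.27 for the RAG1-/- libraries and to 9.26, 9.69 and 9.84 for RAG1-/- Sgo1-/+, with the same 3 libraries high as for the motile cilia genes. Their median r with the motile cilia genes was 0.572, and 3 of 13 (23.1%) had an r above 0.8, against 5.01% of other genes. For 6 basal cell genes this mean lay at 2.31, 0.98 and 1.37 in the RAG1-/- libraries and at 1.19, 1.71 and 1.73 in RAG1-/- Sgo1-/+, again with replicates 1, 5 and 6 highest. The sum of the club cell genes, which is mostly Scgb1a1, did not show this split. It was 78343, 87921 and 60110.2 CPM in RAG1-/- and 64322, 90836 and 73683 CPM in RAG1-/- Sgo1-/+, and the list median of the log2 fold change was 0.05. Scgb1a1, the main club cell secretory protein, had a log2 fold change of 0.01 (SE 0.19), and Cyp2f2 and Scgb3a2 had 0.04 (SE 0.18) and -0.27 (SE 0.18). Per 1000 CPM of club cell genes, the motile cilia genes amounted to 32.2, 21.9 and 29.6 CPM in RAG1-/- and to 32.4, 32.4 and 35.5 CPM in RAG1-/- Sgo1-/+. The groups lay apart on this ratio only by the small step from RAG1-/- replicate 1 to RAG1-/- Sgo1-/+ replicates 4 and 5, and it was computed after the values were known. Basal cell genes (6) summed to 50.1, 14.1 and 19.4 CPM and to 13.9, 24.8 and 41.8 CPM, and their defining marker Krt5 was at 5.12, 0.404 and 1.51 CPM and at 1.62, 3.71 and 5.61 CPM. Libraries with high basal cell levels, RAG1-/- replicate 1 and RAG1-/- Sgo1-/+ replicate 6, were among those with high motile cilia levels, and RAG1-/- Sgo1-/+ replicate 5 was next. Muc5b and Scgb3a1 are secretory genes of the larger airways, named after their values were seen. Both were highest in RAG1-/- replicate 1 and RAG1-/- Sgo1-/+ replicate 6. Muc5b was at 229, 64.0 and 95.6 CPM and at 109, 161 and 319 CPM, and Scgb3a1 was at 814, 174 and 528 CPM and at 281, 422 and 1053 CPM. Scgb3a1 was lower in RAG1-/- Sgo1-/+ replicate 5 than in RAG1-/- replicate 3. For Muc5b and Scgb3a1, r with the motile cilia genes was 0.78 and 0.54. Bpifb1 and Bpifa1, further secretory genes on the list, were at 0.67 and 0.01. Over the 13 club cell genes, r ran from 0.01 (Bpifa1) to 0.87 (Cbr2), so not all followed the motile cilia genes. The part of airway content in the motile cilia levels was not tested.

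Alveolar lists varied otherwise over the libraries. Alveolar type 2 genes (10) summed to 34988, 28512 and 32393 CPM in RAG1-/- and to 32643, 27229 and 24675 CPM in RAG1-/- Sgo1-/+, and alveolar type 1 genes (8) to 9379, 6653 and 7991 CPM and to 10579, 7101 and 6142 CPM. Sftpc, the surfactant protein of type 2 cells, had a log2 fold change of -0.29 (SE 0.16) and Ager, a marker of type 1 cells, one of 0.10 (SE 0.21). General epithelial genes (6) were nearly level, from 1383 to 1704 CPM, with Epcam at 0.21 (SE 0.13). In all of these lists 0 genes were called, and 0 passed an unadjusted P under 0.05 by edgeR.

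**Figure D5:**
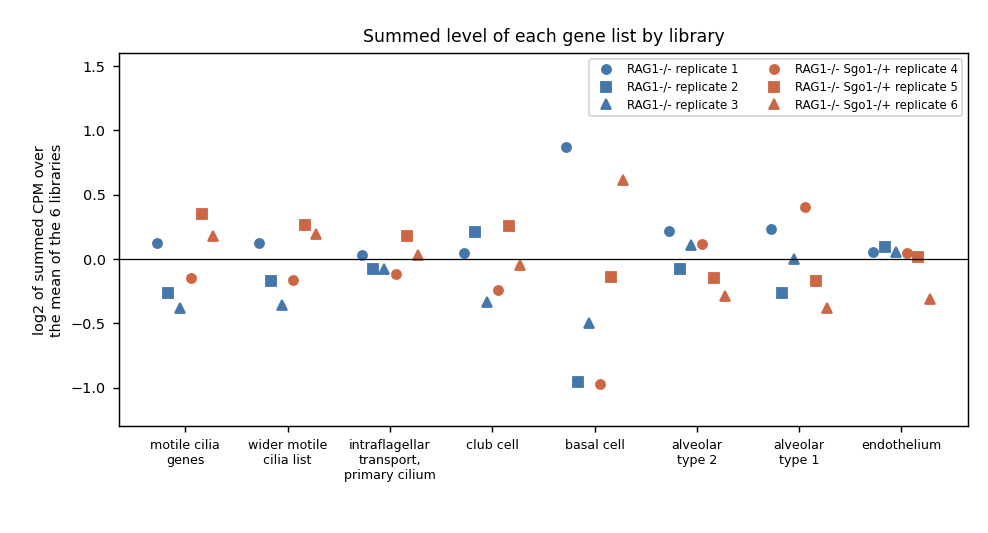
Summed CPM of each gene list in each library, as log2 of its ratio to the mean of the 6 libraries. Blue marks are RAG1-/- and orange marks RAG1-/- Sgo1-/+, with 1 shape per replicate. For the motile cilia genes and the wider list, RAG1-/- replicate 1 and RAG1-/- Sgo1-/+ replicates 5 and 6 lie above 0 and the other 3 below. Of the 8 lists drawn, the basal cell list spreads widest (3.59-fold) and the intraflagellar transport list least of the cilium lists (1.23-fold).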

How the data were processed

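RNA from the lungs of 3 RAG1-/- and 3 RAG1-/- Sgo1-/+ mice, each 12 months old, was sequenced as paired reads from unstranded TruSeq libraries. The authors deposited whole-number read counts for 25860 genes, not normalized, made with GeneSifter on mouse build 37.2. The submitters' processing notes name BWA and edgeR. Most low counts were even (78.7% to 81.6% of counts from 1 to 20), as when both reads of a pair are counted, so counting error is understated by the counts. The table lists each library under 2 headings, and the 6 repeated columns were identical and not used. A second deposited file holds the authors' own comparison (fold change and p-value columns) and was not used.

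Entrez Gene IDs gave symbols for 24048 genes. All 17231 genes whose counts over the 6 libraries reached 10 entered the quasi-likelihood test (edgeR 4.0.16, R 4.3.3). Library size was the total on genes, 3205822 to 9366774. Calls required 2-fold and P under 0.05 after Benjamini-Hochberg adjustment over these genes. The SE is the log2 fold change over the square root of F. Mean differences and r use log2 CPM with a prior count of 2. The exact permutation test on CPM (two-sided, 3 against 3) cannot go below P=0.1, and its smallest value among the 37 genes was 0.2. No p was computed for a list. Per-length levels use GENCODE transcript lengths, and promoter windows are from RefSeq, on GRCm38.p6. Gene coordinates are left out because the count table uses the older build. The workflow was tested on simulated data.

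The 37 genes and all lists were chosen with earlier results of these data known. Named genes are the 37, at most 5 of each other list by lowest P with a few fixed markers, and the 10 genes of highest r. Further genes named after their values were seen are marked in the text. The alternatives were TMM factors, DESeq2 1.42.0, other filters, another prior count, transcript length and each library left out. Added after the data were seen were halved counts, a library size without Scgb1a1 and leaving out 2 libraries together.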

Additional observations from a re-analysis of the deposited data

How the results depend on the processing

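No motile cilia gene was called under any of the 12 alternatives run, and the mean difference stayed above 0 (0.140 to 0.448 with single libraries left out, 0.223 with TMM factors). What moved was the number of genes higher at an unadjusted P under 0.05. It was 3 in the reported fit (8.11%, against 3.15% of all tested genes), 4 by DESeq2 (10.8%, against 1.86%) and 6 without a filter (16.2%, against 3.05%). With single libraries left out it was 0 to 15, where 1.81% to 5.32% of all genes passed. Without both RAG1-/- replicate 2 and RAG1-/- Sgo1-/+ replicate 6 it was 1 (2.7%, against 1.74%). For the wider list, against the same shares of all genes, it was 2, with 4 without a filter, 0 to 18 with single libraries left out, and 0 without both libraries. For the intraflagellar transport list, against these same shares, it was 1 higher, with 0 by DESeq2, 0 to 3 with single libraries left out and 0 without both. The number lower was 0, and 2 without RAG1-/- Sgo1-/+ replicate 5, where 2.57% of all genes were lower. The cause of these shifts was not tested. Of 443 values for single genes under the alternatives, 35 turned sign, in 12 genes, and 0 passed the thresholds. With single libraries left out, the log2 fold changes of these genes ran from -0.26 to 0.29 for Rfx2, -0.0554 to 0.63 for Dnah11, -0.37 to 0.0418 for Ccdc151, -0.12 to 0.38 for Armc4, -0.42 to 0.34 for Lrrc6, -0.0219 to 0.40 for Ccdc113, -0.48 to 0.0224 for Iqcg, -0.22 to 0.19 for Rsph4a, -0.44 to 0.30 for Spag16, -0.13 to 0.28 for Tekt4 and -0.0335 to 0.34 for Sntn. Rfx2 was at -0.0155 with TMM factors, -0.00454 by DESeq2 and -0.0111 with halved counts, and Lrrc6 at 0.000728 with halved counts. Without both libraries Rfx2 was at -0.32, Dnai1 at -0.0150, Armc4 at -0.25, Lrrc6 at 0.0650, Rsph4a at 0.0793, Tekt4 at -0.28 and Sntn at -0.0453. With 3 mice a group, the SE of a log2 fold change among the 37 genes was 0.16 to 0.69, so small differences were not detectable. Larger ones were not shown to be detectable either. In the reported edgeR fit, 0 of the 17231 tested genes had an adjusted P under 0.05 at any fold, and the smallest was 0.832. For 10 of the 37 genes the interval of the log2 fold change reached beyond a 2-fold increase, which was thus not excluded for them. No paired analysis was possible because the sample labels link no mouse of a group to a mouse of the other. The replicate numbers, 1 to 3 and 4 to 6, only number the libraries.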

Other observations

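Genes of other tissues in the lung samples stood out in single libraries. The summed level of 5 adipocyte genes was 403 CPM in RAG1-/- replicate 1 and 45.0 to 96.4 CPM elsewhere, with Adipoq, an adipocyte hormone, at 86.1 CPM there and 4.99 to 12.5 CPM in the other libraries. All 5 had log2 fold changes below 0, and 2 of them, Adipoq and Cidec, an unadjusted P under 0.05 by edgeR, where 2.52% of all tested genes were lower. In CPM, RAG1-/- Sgo1-/+ lay wholly lower for 1 of the 5, against 5.54% of all tested genes. The 6 B cell genes summed to 718 CPM in RAG1-/- replicate 2 and to 15.8 to 20.7 CPM elsewhere. For 4 of them the group mean was lower in RAG1-/- Sgo1-/+ at an unadjusted P under 0.05 by edgeR, against 2.52% of all tested genes. The high level lay in that 1 RAG1-/- library, and the groups did not overlap for 0 of the 6. Cardiac muscle genes (6) ranged from 122 to 241 CPM. Endothelial genes (5) ranged from 1115 to 1477 CPM and were lowest in RAG1-/- Sgo1-/+ replicate 6. Of these 5 genes, 4 had a log2 fold change below 0 and 0 an unadjusted P under 0.05 by edgeR. For 2 of them RAG1-/- Sgo1-/+ lay wholly lower in CPM, against 5.54% of all tested genes. By edgeR 0 genes of these lists were called.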
